A study of Rattus norvegicus with 12 samples.

Results

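The genes described here make, load, take back and receive the inhibitory transmitters glycine and GABA. They are 10 of the 34525 genes in the deposited table, chosen by symbol: the glycine transporters Slc6a5 and Slc6a9, the glycine receptor subunits Glra1, Glra2, Glra3 and Glrb, the anchoring protein gene Gphn, the vesicular transporter Slc32a1 and the GABA-synthesizing enzymes Gad1 and Gad2. All 10 were found under a single identifier each. RNA was sequenced from rat brain in a series on chronic orofacial pain, in 12 libraries of 3 per group: rostral ventral medulla (RVM) labelled CFA, RVM labelled saline, thalamus labelled CFA and thalamus labelled saline. CFA is the usual abbreviation of complete Freund's adjuvant, which causes lasting inflammation where it is injected, and the control was 0.9% saline. No strain, age, injection site, dose or interval is stated for any of the 4 groups, and none is labelled with a genetic change. The text on RNA extraction names retinas in place of brain. Since no label says that the samples of a group are separate animals, each p-value reflects the spread among 3 samples. That spread may not be the spread among animals. Values are FPKM, fragments per kilobase of gene and per unit of library size as the authors scaled them, and the libraries held 14.94 to 19.24 M reads on genes, recovered from them.

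The region labels were checked against marker genes fixed by symbol. Genes of hindbrain position (Hox genes and the like) summed to 55.8 to 59.6 FPKM in RVM CFA and 62.3 to 74.6 FPKM in RVM saline, against 0 to 0.0848 FPKM over the 6 thalamus libraries. Thalamic relay neuron genes summed to 70.6 to 86.5 FPKM over the 6 RVM libraries, against 133, 526 and 435 FPKM in thalamus CFA 1, 2 and 3 and 371, 934 and 775 FPKM in thalamus saline 1, 2 and 3. The thalamus libraries thus differed among themselves, and the libraries numbered 1 held the least relay neuron RNA of their groups. These are bulk samples, in which fewer cells of a type and less RNA per cell cannot be told apart.

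Glycine is the main fast inhibitory transmitter beside GABA in the brainstem and spinal cord, and GABA prevails in the forebrain. An inhibitory neuron makes GABA from glutamate with the enzymes of Gad1 and Gad2, or collects glycine through the plasma membrane transporter of Slc6a5 (GlyT2), and loads either into vesicles with the transporter of Slc32a1 (VGAT). On the receiving cell, pentamers of alpha subunits (Glra1 to Glra3) and beta subunits (Glrb) form a chloride channel that gephyrin, the product of Gphn, holds at the synapse through the beta subunit, while the glial transporter of Slc6a9 (GlyT1) takes glycine back.

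The sequence just before the start of 4 of these genes is shown because the results turn on them: Slc6a5 had the widest difference between the regions among the 10, and Gad1, Gad2 and Slc32a1 vary together among the thalamus libraries. Each is the 250 bases before the gene's start in the RefSeq annotation of rat assembly GRCr8, written 5′ to 3′ on the gene's strand, and 9 of the 10 genes matched that table by symbol (the other is Glra1). Capitals mark a match to any of 3 motifs searched on both strands: TAATTA (a core bound by many homeodomain proteins), CAGCTG (an E-box of the kind bound by basic helix-loop-helix proteins) and TATAAA (the TATA box).
Slc6a5 promoter, chr1:108781303-108781552 (plus strand): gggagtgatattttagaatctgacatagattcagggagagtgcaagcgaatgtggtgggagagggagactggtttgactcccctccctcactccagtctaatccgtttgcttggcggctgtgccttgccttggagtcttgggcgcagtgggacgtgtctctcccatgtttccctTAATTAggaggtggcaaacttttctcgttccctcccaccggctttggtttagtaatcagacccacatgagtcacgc
Gad1 promoter, chr3:75777202-75777451 (plus strand): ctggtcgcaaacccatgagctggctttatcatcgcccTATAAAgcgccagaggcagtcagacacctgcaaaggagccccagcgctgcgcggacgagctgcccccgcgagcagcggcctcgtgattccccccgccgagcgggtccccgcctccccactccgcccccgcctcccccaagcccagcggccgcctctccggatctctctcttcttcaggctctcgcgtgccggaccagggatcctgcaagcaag
Gad2 promoter, chr17:89671468-89671717 (plus strand): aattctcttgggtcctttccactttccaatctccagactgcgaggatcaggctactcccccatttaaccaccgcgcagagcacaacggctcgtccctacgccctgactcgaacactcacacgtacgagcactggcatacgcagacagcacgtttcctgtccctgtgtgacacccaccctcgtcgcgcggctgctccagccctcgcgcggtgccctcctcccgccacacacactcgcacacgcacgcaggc
Slc32a1 promoter, chr3:167686995-167687244 (plus strand): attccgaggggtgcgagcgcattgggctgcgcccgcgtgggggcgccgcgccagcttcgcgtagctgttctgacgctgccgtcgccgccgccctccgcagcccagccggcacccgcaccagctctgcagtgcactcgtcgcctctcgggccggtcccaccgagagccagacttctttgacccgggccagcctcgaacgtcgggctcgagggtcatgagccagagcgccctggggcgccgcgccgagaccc
TAATTA was found in the Slc6a5 window, with its first base at position -76 from the start, and 4.86% of 33469 rat promoter windows of this length held it. TATAAA was found in the Gad1 window at -213 and in the Glra2 window at -11 on the other strand, against 12.9% of all windows, and CAGCTG in the Glra3 window at -54, against 12%. The windows of Gad2, Slc32a1, Slc6a9, Glrb and Gphn held none of these letters. CpG dinucleotides numbered 8 in Slc6a5, 23 in Gad1, 22 in Gad2 and 34 in Slc32a1, against a median of 5 over all windows, and GC made up 52.4% of the Slc6a5 window, 68.4% of Gad1, 62.0% of Gad2 and 73.6% of Slc32a1. The windows of Gad1, Gad2 and Slc32a1 thus held more CpG than that of Slc6a5. This was not particular to them, as Gphn had 32 CpG and Glrb 16. Slc6a9 had 8, Glra2 7 and Glra3 4. A match is a description of the letters and not evidence of binding.

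Slc6a5, the gene of the neuronal glycine transporter GlyT2, was near 54 FPKM in every RVM library and below 1 FPKM in every thalamus library. It had 53.4, 55.9 and 53.5 FPKM in RVM CFA and 57.1, 50.9 and 52.9 FPKM in RVM saline. In thalamus it had 0.0729, 0.302 and 0.384 FPKM in thalamus CFA and 0.362, 0.406 and 0.653 FPKM in thalamus saline. The RVM values rest on 5129 to 7404 reads and the thalamus values on 10 to 78 reads, so the thalamus level is low but above 0 in all 6 libraries. As a ratio of mean FPKM, RVM was 215 times thalamus under CFA and 113 times under saline, with no overlap. On the log2(FPKM + 1) scale the difference between RVM and thalamus was 5.47 ± 0.12 (SE, n = 3 per group) under CFA, with a limma adjusted p of 3.09e-05, and 5.22 ± 0.10 under saline, with a limma adjusted p of 1.27e-05. It had the smallest p of all genes tested in both comparisons (rank 1 of 14787 and rank 1 of 14396). Slc6a5 reached the tested genes through its RVM level alone, as its thalamus mean was under the filter of 1 FPKM, so it had to differ; a thalamus level so low also makes the log2 value smaller than the ratio of means. In the table the gene is ENSRNOG00000031662 on chromosome 1, 105284753 to 105336363, in a build that neither the labels nor the table names.

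**Figure D1:**
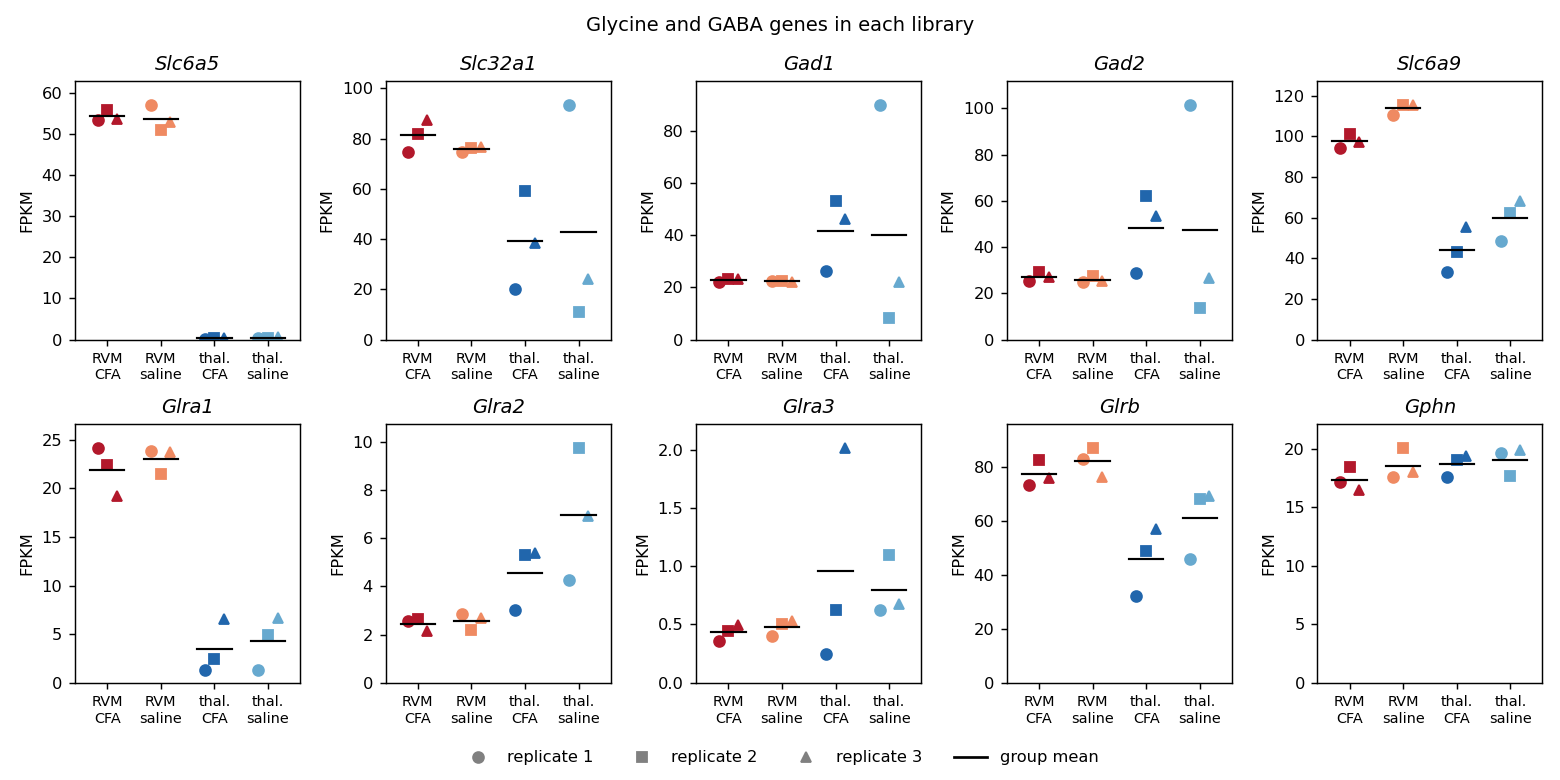
FPKM (y axis, from 0, a scale of its own in each panel) of the 10 genes in each of the 12 libraries, by group (x axis; thal., thalamus), with a point per library, its shape giving the replicate, and a line at the group mean. Slc6a5 lies between 50.9 and 57.1 FPKM in RVM and below 1 FPKM in thalamus, while Gad1, Gad2 and Slc32a1 lie close together in RVM and spread widely in thalamus.

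Slc32a1, which loads both transmitters into vesicles, was steady in RVM and spread widely in thalamus. It had 74.6, 82.0 and 87.3 FPKM in RVM CFA and 74.9, 76.5 and 76.8 FPKM in RVM saline. Its thalamus values were 20.1, 59.2 and 38.6 FPKM in thalamus CFA and 93.6, 10.9 and 24.2 FPKM in thalamus saline. Every RVM CFA library was above every thalamus CFA library, whereas thalamus saline 1 was higher than all RVM libraries. The difference between RVM and thalamus was 1.15 ± 0.35 on the log2(FPKM + 1) scale under CFA (SE, n = 3 per group, limma adjusted p = 0.0472), and 1.34 under saline, with a 95% interval of -0.30 to 2.97 (limma adjusted p = 0.156). The call under CFA was lost without RVM CFA 1, 2 or 3 (1.21, 1.15 and 1.1; limma adjusted p = 0.0991, 0.116 and 0.131) and without thalamus CFA 3 (1.2; adjusted p = 0.0857). Without thalamus saline 1 the difference under saline was 2.15, with a limma adjusted p of 0.00189.

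Gad1 and Gad2, which encode the cytosolic and the vesicle-associated glutamate decarboxylase, were likewise near constant in RVM. Gad1 had 22.1, 23.4 and 23.4 FPKM in RVM CFA and 22.6, 22.5 and 22.0 FPKM in RVM saline. Its thalamus values were 26.2, 53.1 and 46.2 FPKM in thalamus CFA and 90.2, 8.24 and 22.0 FPKM in thalamus saline. Gad2 had 25.2, 29.2 and 27.0 FPKM in RVM CFA and 25.1, 27.3 and 25.3 FPKM in RVM saline. In thalamus it had 28.9, 62.2 and 53.2 FPKM in thalamus CFA and 102, 13.8 and 26.8 FPKM in thalamus saline. In both genes thalamus saline 1 was the highest library of all and thalamus saline 2 the lowest, so that the RVM libraries lay inside the thalamus saline range. Neither gene passed the test between regions. Gad1 differed by -0.78 on the log2(FPKM + 1) scale under CFA (95% interval -1.37 to -0.18; limma adjusted p = 0.0531) and by -0.20 under saline (-2.0 to 1.60; adjusted p = 0.846). Gad2 differed by -0.74 under CFA (-1.39 to -0.09; adjusted p = 0.0787) and by -0.38 under saline (-1.92 to 1.16; adjusted p = 0.66). Without thalamus CFA 1 both were lower in RVM under CFA, with log2 differences of -1.08 and -1.06 (limma adjusted p = 0.00115 and 0.00177). Without thalamus saline 1 the differences under saline turned to 0.68 and 0.40 and did not pass.

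Ratios among the GABA genes were formed within each library. Gad1 over Gad2, as a ratio of FPKM in the same library, was 0.80 to 0.88 in RVM CFA, 0.825 to 0.90 in RVM saline, 0.854 to 0.904 for thalamus CFA and 0.595 to 0.887 for thalamus saline. Slc32a1 over the sum of Gad1 and Gad2 was 1.56 to 1.73 in RVM CFA and 1.53 to 1.63 in RVM saline, with 0.366 to 0.513 for thalamus CFA and 0.488 to 0.496 for thalamus saline. In thalamus saline, where Slc32a1 itself spanned 8.59-fold, this ratio stayed within a narrow range, while Gad1 over Gad2 did not. RVM carried more vesicular transporter RNA per GABA enzyme RNA than any thalamus library. Slc6a5 over Slc32a1 was 0.613 to 0.715 in RVM CFA and 0.666 to 0.763 in RVM saline, with 0.00362 to 0.00993 for thalamus CFA and 0.00387 to 0.0373 for thalamus saline. These ratios are given without a test, as they were formed from genes whose levels had been seen.

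Slc6a9, the gene of the mainly glial glycine transporter GlyT1, was the most abundant of the 10 in RVM and was present at a lower level in thalamus. It had 94.0, 101 and 97.1 FPKM in RVM CFA and 110.5, 116 and 115 FPKM in RVM saline. In thalamus it had 33.4, 43.1 and 55.6 FPKM in thalamus CFA and 48.3, 62.4 and 68.0 FPKM in thalamus saline. No RVM library overlapped any thalamus library. The log2(FPKM + 1) difference between RVM and thalamus was 1.16 ± 0.18 under CFA (SE, n = 3 per group; limma adjusted p = 0.00503) and 0.94 ± 0.13 under saline (limma adjusted p = 0.00175), or 2.21 and 1.91 times as a ratio of mean FPKM. Summed astrocyte markers (10 of 10 genes at 1 FPKM or more in every library) summed higher in RVM, with 4989 to 5602 FPKM in RVM CFA and 5021 to 5298 FPKM in RVM saline, and with 2708 to 2854 FPKM in thalamus CFA and 2354 to 2611 FPKM in thalamus saline. Of the 10, 4 were called higher and 1 lower under CFA, and 5 higher and 0 lower under saline, with median log2 differences of 0.42 and 0.36. Of all genes tested, 18.1% were higher and 14.9% lower under CFA, and 22.7% higher and 22.6% lower under saline. The medians over all genes were 0.00 and 0.02. The part of astrocytes in the difference of Slc6a9 was not tested.

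The glycine receptor alpha genes differed in composition between the regions. Glra1, the alpha subunit of adult brainstem and spinal cord receptors, had 24.2, 22.4 and 19.2 FPKM in RVM CFA and 23.9, 21.5 and 23.7 FPKM in RVM saline. Its thalamus values were 1.34, 2.41 and 6.54 FPKM in thalamus CFA and 1.35, 4.90 and 6.62 FPKM in thalamus saline. The regions did not overlap, and the thalamus libraries differed among themselves far more than those of RVM. Its difference was 2.54 ± 0.40 on the log2(FPKM + 1) scale under CFA (SE, n = 3 per group; limma adjusted p = 0.00573) and 2.34 ± 0.41 under saline (limma adjusted p = 0.00457), which as mean FPKM is 6.40 and 5.36 times. Glra2, the alpha subunit known from immature neurons and the forebrain, had 2.56, 2.63 and 2.16 FPKM in RVM CFA and 2.85, 2.17 and 2.67 FPKM in RVM saline. Its thalamus values were 3.01, 5.30 and 5.37 FPKM in thalamus CFA and 4.24, 9.75 and 6.91 FPKM in thalamus saline. Here every thalamus library was above every RVM library. The difference between RVM and thalamus was -1.1 ± 0.26 under saline (SE, n = 3 per group; limma adjusted p = 0.0134), which did not pass without RVM saline 2 (-1.02; adjusted p = 0.0510), and -0.66 under CFA, just outside the threshold (95% interval -1.15 to -0.16; limma adjusted p = 0.0501). Glra2 under CFA did pass without thalamus CFA 1 (-0.88; limma adjusted p = 0.00480).

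Glra3 was scarce everywhere, on 8 to 57 reads, and under 1 FPKM on average in every group, so it entered no test. It had 0.359 to 0.494 FPKM in RVM CFA and 0.399 to 0.532 FPKM in RVM saline, against 0.248, 0.623 and 2.02 FPKM in thalamus CFA and 0.621, 1.1 and 0.675 FPKM in thalamus saline. As a share of the summed FPKM of the 3 alpha genes, Glra1 made up 87.8 to 89.2% in RVM CFA and 88.0 to 88.9% in RVM saline, beside 28.9 to 47.0% for thalamus CFA and 21.7 to 46.6% for thalamus saline. Glra2 made up 9.44 to 10.3% in RVM CFA and 9.01 to 10.5% in RVM saline, beside 38.5 to 65.5% for thalamus CFA and 48.6 to 68.3% for thalamus saline. The composition was nearly the same in all 6 RVM libraries and did not overlap that of any thalamus library.

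**Figure D2:**
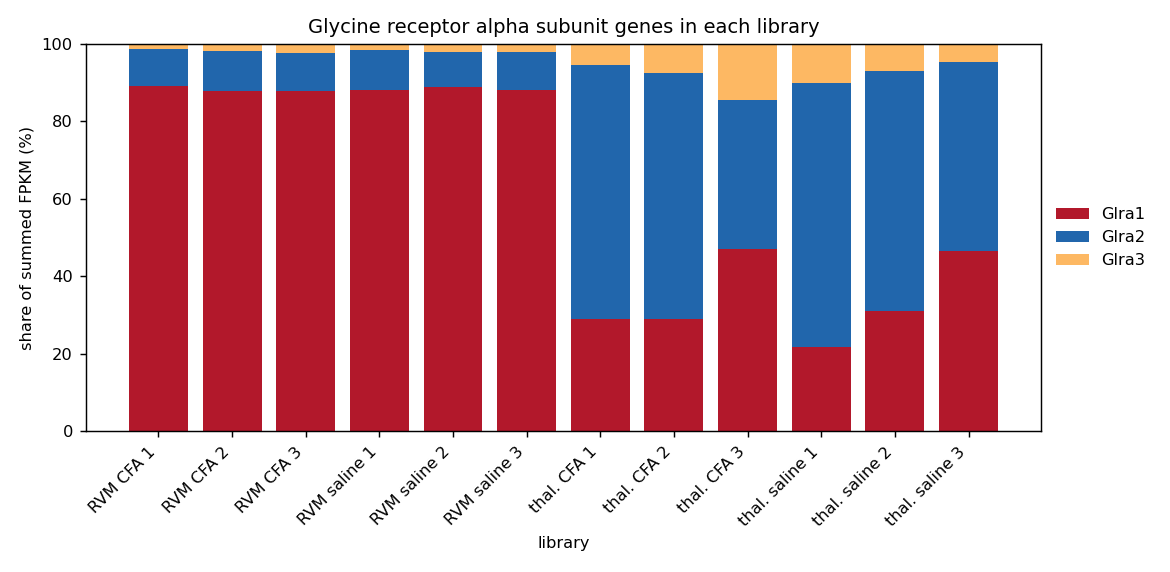
Share of Glra1, Glra2 and Glra3 in their summed FPKM (y axis, percent) in each of the 12 libraries (x axis; thal., thalamus). Glra1 fills 87.8 to 89.2% of every RVM bar and 21.7 to 47.0% of every thalamus bar.

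Glrb, the beta subunit through which the receptor is anchored, was abundant in both regions. It had 73.5, 82.8 and 75.8 FPKM in RVM CFA and 83.1, 87.2 and 76.1 FPKM in RVM saline. In thalamus it had 32.3, 48.7 and 57.2 FPKM in thalamus CFA and 45.8, 68.2 and 69.2 FPKM in thalamus saline. The regions did not overlap under either treatment. Glrb was higher in RVM than in thalamus under CFA, by 0.77 ± 0.20 on the log2(FPKM + 1) scale (SE, n = 3 per group; limma adjusted p = 0.0288), while under saline the difference of 0.44 (95% interval 0.05 to 0.84) had a limma adjusted p of 0.0666. The call under CFA was lost without RVM CFA 1, 2 or 3 (0.81, 0.72 and 0.79; limma adjusted p = 0.0723, 0.0909 and 0.0813) and without thalamus CFA 2 (0.83; adjusted p = 0.0612), and without thalamus saline 1 the difference under saline passed at 0.25 (adjusted p = 0.0305). Per FPKM of the alpha genes summed, Glrb stood at 2.71 to 3.47 in RVM CFA and 2.83 to 3.61 in RVM saline, with 4.11 to 7.03 for thalamus CFA and 4.33 to 7.37 for thalamus saline. Beta RNA was thus in excess of alpha RNA in all libraries, and more so in thalamus.

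Gphn, whose product gephyrin also anchors GABA-A receptors, was the most even of the 10. It lay between 16.5 and 18.4 FPKM in RVM CFA and 17.6 and 20.1 FPKM in RVM saline, against 17.6 and 19.4 FPKM in thalamus CFA and 17.7 and 19.9 FPKM in thalamus saline. The groups overlapped, and the difference between RVM and thalamus was -0.10 on the log2(FPKM + 1) scale under CFA (95% interval -0.30 to 0.10; limma adjusted p = 0.388) and -0.04 under saline (-0.24 to 0.17; limma adjusted p = 0.744), though with every library set to the same FPKM total Gphn passed as lower in RVM under CFA (-0.43; limma adjusted p = 0.00622).

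Of the 9 genes tested between the regions, 5 passed under CFA, all higher in RVM (Slc6a5, Slc6a9, Glra1, Glrb and Slc32a1), where 33% of all 14787 genes tested passed and 18.1% as higher. Under saline 4 passed, where 45.3% of all 14396 genes passed. Of these, Slc6a5, Slc6a9 and Glra1 were higher in RVM, as were 22.7% of all genes, and Glra2 was lower, as were 22.6%. The share under saline is thus no larger than that of all genes, whether or not Slc6a5 is counted. Regions whose libraries do not overlap were also common, in 51.7% of all genes under CFA and 58.8% under saline. Slc6a5 was tested through its RVM level alone, so its call was fixed and nothing is read from it in these counts. The 8 genes at 1 FPKM or more in both regions had 4 higher and 0 lower under CFA and 2 higher and 1 lower under saline, with median differences of 0.34 and 0.20 on the log2(FPKM + 1) scale, beside 0.00 and 0.02 over all genes tested. The calls of Slc6a9 and Glra1, and that of Slc6a5 fixed by the filter, were kept in both comparisons under all alternatives run. The scaling of the libraries mattered for the others. With every library set to the same FPKM total, the median over all genes under CFA was -0.30 and the split was 1017 higher and 5134 lower, beside 2674 higher and 2206 lower as deposited. Under that scaling Glrb (0.43) and Slc32a1 (0.81) did not pass under CFA, with limma adjusted p of 0.108 and 0.101, while Glra2 (-0.93), Gad1 (-1.12), Gad2 (-1.08) and Gphn (-0.43) passed as lower in RVM. With the same scaling under saline, the median of all genes was -0.14 and the split was 2001 higher and 4558 lower, beside 3273 and 3250 as deposited. The same 4 genes were called there.

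**Figure D3:**
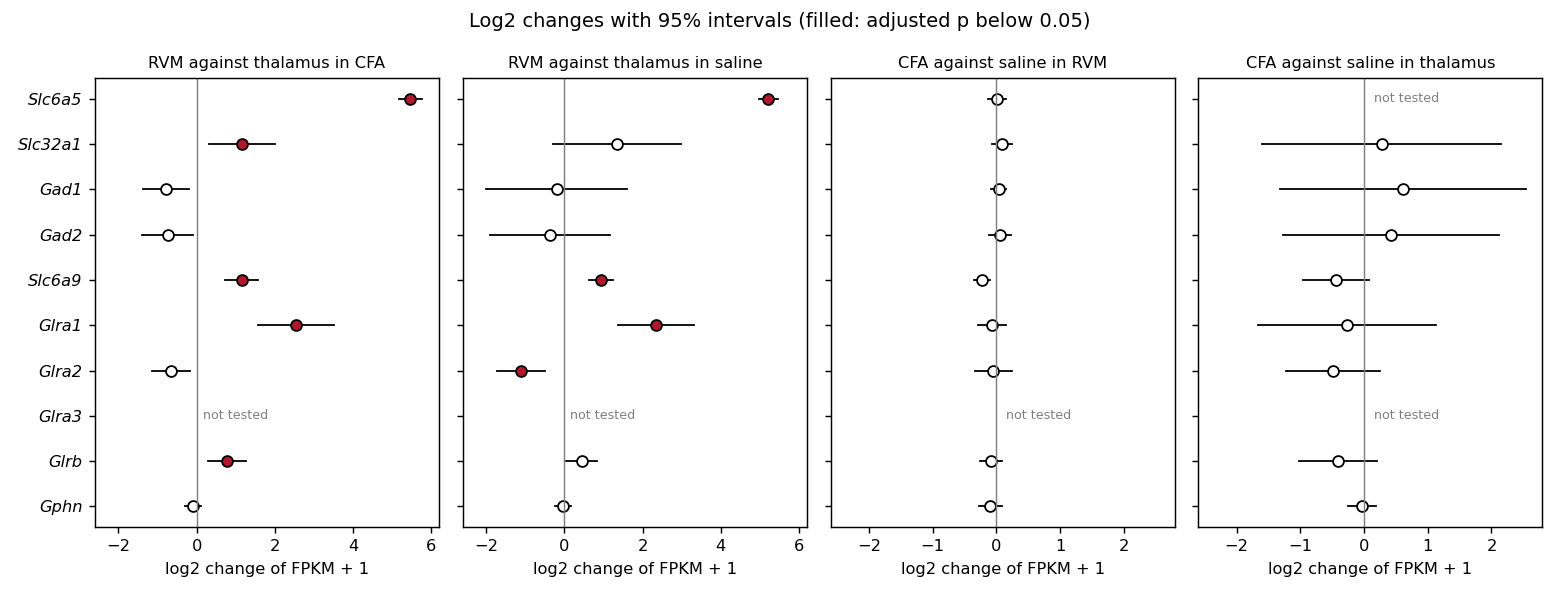
Differences of the tested genes on the log2(FPKM + 1) scale (x axis, with its own range in the region panels and in the CFA panels), with 95% intervals as bars and filled points for an adjusted p below 0.05, in a panel per comparison. Slc6a5 stands at 5.47 and 5.22 in the region panels, and the intervals of Slc32a1, Gad1, Gad2 and Glra1 are wide wherever thalamus libraries enter.

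In order of level, FPKM being per length, RVM ran Slc6a9 (106 ± 9.42 FPKM, SD over 6 libraries), Glrb (79.8 ± 5.36), Slc32a1 (78.7 ± 5.0), Slc6a5 (54.0 ± 2.21), Gad2 (26.5 ± 1.65), Gad1 (22.7 ± 0.599), Glra1 (22.5 ± 1.91), Gphn (18.0 ± 1.25), Glra2 (2.51 ± 0.280) and Glra3 (0.456 ± 0.0670). The ranges of neighbours overlapped for Glrb with Slc32a1, for Gad1 with Glra1 and for Glra1 with Gphn, and not elsewhere in that order. In thalamus the order was Glrb (53.6 ± 14.2 FPKM), Slc6a9 (51.8 ± 12.8), Gad2 (47.8 ± 31.9), Slc32a1 (41.1 ± 30.7), Gad1 (41.0 ± 29.2), Gphn (18.9 ± 1.00), Glra2 (5.76 ± 2.34), Glra1 (3.86 ± 2.48), Glra3 (0.880 ± 0.619) and Slc6a5 (0.363 ± 0.187). There all neighbours overlapped except Gphn and Glra2. The coefficient of variation of Gad1 was 71.1% over the thalamus libraries and 2.65% over the RVM libraries.

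Markers of 3 kinds of inhibitory neuron were summed beside the GABA genes in each thalamus library, and none of the 3 sums followed those genes in all libraries. The summed FPKM of 9 transcription factor genes of forebrain inhibitory neurons (Dlx1, Dlx2, Dlx5, Sp8, Sp9 and others) was 18.4, 48.4 and 8.24 in thalamus CFA 1, 2 and 3 and 73.5, 16.8 and 14.4 in thalamus saline 1, 2 and 3, and 4, 7, 2, 8, 2 and 2 of the 9 genes in that order were at 1 FPKM or more. Dlx1, which specifies forebrain interneurons, had 1.87, 10.6 and 0.262 FPKM in thalamus CFA and 16.9, 0.723 and 0.57 FPKM in thalamus saline. Sst, the neuropeptide gene of an interneuron class, had 65.9, 165 and 47.5 FPKM in thalamus CFA and 263, 58.9 and 39.1 FPKM in thalamus saline. The libraries highest in Sst and in the factors, thalamus saline 1 and thalamus CFA 2, were also the highest of their groups in Gad1, Gad2 and Slc32a1. Thalamus CFA 3 was different, since it was low in the factors, with 2 of the 9 at 0, and still had 46.2 FPKM of Gad1 and 53.2 FPKM of Gad2. In RVM the factors summed to 4.45 to 5.49 FPKM under CFA and 5.47 to 7.41 FPKM under saline. Summed markers of inhibitory interneurons (9 genes, Sst among them) were 293, 645 and 534 FPKM in thalamus CFA 1, 2 and 3 and 800.4, 963 and 808 FPKM in thalamus saline 1, 2 and 3. In the saline libraries they were highest in saline 2, where Gad1, Gad2 and Slc32a1 were lowest. Most of each of these thalamus sums came from genes other than Sst, so Sst does not stand for the list. Summed markers of the thalamic reticular nucleus, a sheet of GABA neurons beside the relay nuclei, were 204, 105 and 186 FPKM in thalamus CFA and 86.7, 39.9 and 68.1 FPKM in thalamus saline (7 genes). They were lowest in CFA 2, where the 3 GABA genes were highest among the CFA libraries. Of the 7 marker genes, 4 had a positive log2 difference between CFA and saline, with a median of 0.15. Only Spp1 was called, as higher in CFA (log2 difference 3.28, limma adjusted p = 0.0163). The rise of the sum under CFA was thus not shared by the whole list, and a single gene can carry it. In RVM these 7 genes summed to 432 to 523 FPKM under CFA and 337 to 400 FPKM under saline, above every thalamus library. The list is thus not particular to the reticular nucleus. The part of these cells in the spread was not tested.

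The glycine side of the list followed other libraries. Glra1, Glra2, Glrb and Slc6a9 were each lowest in replicate 1 of their thalamus group, the libraries in which summed cerebral cortex markers were highest (298, 30.5 and 24.4 FPKM in thalamus CFA, and 132, 26.5 and 60.0 FPKM in thalamus saline) and relay neuron markers lowest. Thalamus CFA 1 and 2 also held 10266 and 2464 FPKM of summed choroid plexus markers, against 15 FPKM in thalamus CFA 3 and 27.9, 5.16 and 9.22 FPKM in thalamus saline. The part of these tissues in the values was not tested. The fits were repeated without thalamus CFA 1 and 2 for the comparisons that use them, which leaves a single thalamus CFA library.

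**Figure D4:**
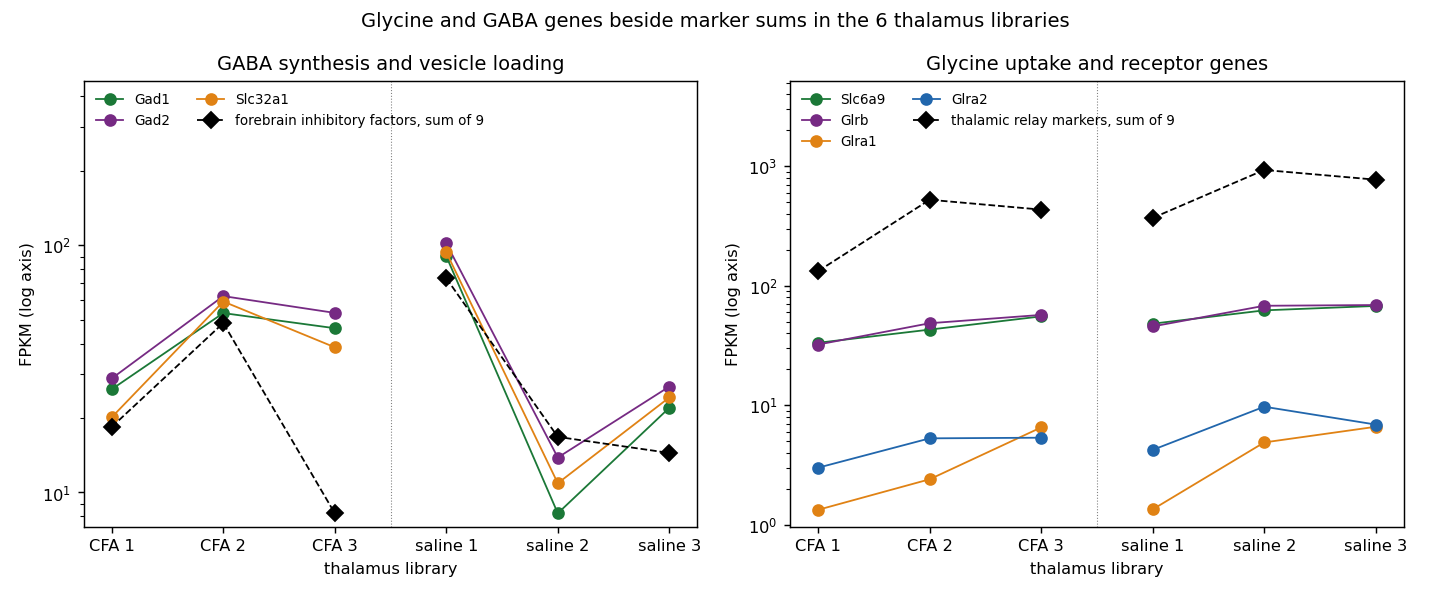
FPKM (y axis, log scale) of glycine and GABA genes and summed FPKM of marker lists in the 6 thalamus libraries (x axis, CFA left of saline). Gad1, Gad2 and Slc32a1 are highest in saline 1 and lowest in saline 2, the summed forebrain factors are highest in saline 1 (73.5 FPKM) and CFA 2 (48.4 FPKM), and Glra1, Glrb and Slc6a9 are lowest in the libraries numbered 1. Lines join libraries of a group only to guide the eye.

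No glycine or GABA gene tested passed between CFA and saline in thalamus, where Slc6a5 and Glra3 were too low to be tested. Of the 8 tested, 0 passed limma's adjusted p of 0.05 and 0 had an unadjusted p below 0.05, with 0 also by limma-voom on the recovered reads, where 4.11% of all 14722 genes tested passed (565 higher and 40 lower). For all 10 genes the CFA range overlapped the saline range, while the ranges were apart for 29% of all genes. Slc6a9 averaged 44.0 ± 11.1 FPKM in thalamus CFA and 59.6 ± 10.2 FPKM in thalamus saline (SD, n = 3 each), with a log2 difference of -0.44 and a 95% interval of -0.96 to 0.07 (limma adjusted p = 0.278). Glrb differed by -0.41 (-1.02 to 0.20; limma adjusted p = 0.365) and Glra2 by -0.49 (-1.23 to 0.25; adjusted p = 0.372). Gphn had the narrowest interval, at -0.03 and -0.25 to 0.19 (limma adjusted p = 0.884), and its sign turned to 0.13 with the same FPKM total.

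For the GABA genes the thalamus comparison could not show differences of several fold in either direction. Gad1 averaged 41.8 ± 14.0 FPKM in thalamus CFA and 40.1 ± 43.9 FPKM in thalamus saline (SD, n = 3 each), with a log2 difference of 0.61 and a 95% interval of -1.32 to 2.54 (limma adjusted p = 0.673). The interval was -1.27 to 2.13 for Gad2, -1.60 to 2.15 for Slc32a1 and -1.66 to 1.12 for Glra1, with differences of 0.43, 0.28 and -0.27 (limma adjusted p = 0.75, 0.86 and 0.81). Leaving out single libraries moved these values strongly. Without thalamus saline 1, Gad1, Gad2 and Slc32a1 differed by 1.49, 1.2 and 1.09 (limma adjusted p = 0.146, 0.158 and 0.245), and without thalamus saline 2 by -0.16, -0.19 and -0.40 (limma adjusted p = 0.93, 0.912 and 0.818). Slc6a5, untested at its low level, averaged 0.253 ± 0.161 FPKM in thalamus CFA and 0.474 ± 0.157 FPKM in thalamus saline, on 10, 37 and 46 reads and on 52, 47 and 78 reads, with overlapping FPKM ranges. Summed microglia markers, 919 to 1266 FPKM in thalamus CFA against 174 to 207 FPKM in thalamus saline, did not overlap between the same groups. Summed neuron markers overlapped, at 1782 to 2685 FPKM in thalamus CFA and 2653 to 3649 FPKM in thalamus saline. Of the 12 markers 0 were called and 0 had a positive log2 difference, with a median of -0.44, beside -0.076 over all genes tested. The part of these cells in the values above was not tested.

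In RVM the CFA and saline libraries were close together for all 9 genes tested. In limma 0 of the 9 passed an adjusted p of 0.05, and 0% of all 14289 genes did. An unadjusted p below 0.05 was found for 2030 genes and for 1 of the 9, Slc6a9, and limma-voom also called 0. Slc6a9 averaged 97.5 ± 3.64 FPKM in RVM CFA and 114 ± 2.86 FPKM in RVM saline (SD, n = 3 each), and every CFA library was below every saline library, as was so for 12.5% of all genes. Its log2 difference was -0.22 ± 0.05 (SE, 95% interval -0.34 to -0.10; unadjusted p = 0.00345 and limma adjusted p = 0.242). Slc6a9 was lower in CFA in every alternative run, with adjusted p of 0.0767 to 0.836. Summed oligodendrocyte markers were 17334 to 18294 FPKM in RVM CFA against 23449 to 26581 FPKM in RVM saline, microglia markers 338 to 1212 FPKM against 172 to 225 FPKM, and astrocyte markers overlapped between these groups. Their part in the difference was not tested. Slc6a9 overlaps Ccdc24 on the opposite strand, which reached at most 0.922 FPKM.

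The other 8 RVM intervals were narrow enough to bound a change. The 95% interval of the log2 difference between CFA and saline was -0.12 to 0.16 for Slc6a5, -0.09 to 0.16 for Gad1, -0.11 to 0.23 for Gad2, -0.06 to 0.25 for Slc32a1, -0.26 to 0.09 for Glrb, -0.27 to 0.08 for Gphn, -0.29 to 0.15 for Glra1 and -0.33 to 0.24 for Glra2. The lowest of their limma adjusted p was 0.583, that of Slc32a1. The interval in thalamus was wider for each of the 8 genes tested there.

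Whether CFA acted differently in the regions was tested as an interaction over all 12 libraries. Of the 8 genes tested, 0 passed and 0 had an unadjusted p below 0.05, where 0% of all 13738 genes passed in limma, 1560 had an unadjusted p below 0.05, and limma-voom called 0. The CFA effect in RVM minus that in thalamus was 0.22 for Slc6a9 (95% interval -0.29 to 0.73; limma adjusted p = 0.693), 0.33 for Glrb (-0.30 to 0.95; adjusted p = 0.636) and -0.58 for Gad1 (-2.51 to 1.36; adjusted p = 0.796). A difference between the regions was therefore not detectable, with the interval of Gad1 spanning several fold.

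Partner genes were counted by class. Of 20 GABA receptor subunit genes 16 were tested between regions, and 10 were lower and 1 higher in RVM than in thalamus under saline, with 7 lower and 0 higher under CFA. Of all genes tested, 22.6% were lower and 22.7% higher in RVM under saline, and 14.9% lower and 18.1% higher under CFA. Gabrd, the delta subunit of extrasynaptic GABA-A receptors, averaged 0.316 ± 0.224 FPKM in RVM CFA against 25.9 ± 13.8 FPKM in thalamus CFA, and 0.281 ± 0.104 FPKM in RVM saline against 60.0 ± 29.3 FPKM in thalamus saline (SD, n = 3 each). Gabbr2, a subunit of the metabotropic GABA-B receptor, averaged 21.9 ± 1.86 FPKM in RVM CFA against 86.7 ± 19.7 FPKM in thalamus CFA, and 22.5 ± 1.80 FPKM in RVM saline against 140 ± 45 FPKM in thalamus saline. Both were lower in RVM, by -4.19 and -1.91 under CFA (limma adjusted p = 0.00170 and 0.00123) and by -5.42 and -2.53 under saline (limma adjusted p = 0.00025 and 0.000509). Gabrd passed the filter on low values through its thalamus level alone, so it had to differ. The median over the tested subunits was -0.56 under CFA and -0.77 under saline on the log2(FPKM + 1) scale, beside 0.00 and 0.02 over all genes, and -0.89 and -0.94 with the same FPKM total, when all genes had -0.30 and -0.14.

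Of 13 genes of the inhibitory postsynapse other than Gphn, all tested, 8 were lower in RVM and 0 higher under each treatment, where 14.9% of all genes were lower under CFA and 22.6% under saline. Nlgn2, the adhesion protein of inhibitory synapses, averaged 23.2 ± 1.17 FPKM in RVM CFA against 42.6 ± 6.2 FPKM in thalamus CFA, and 24.1 ± 0.954 FPKM in RVM saline against 55.4 ± 0.908 FPKM in thalamus saline (SD, n = 3 each; log2 differences -0.84 and -1.17, limma adjusted p = 0.00436 and 0.000114). Of the genes that make and break down glycine and serine, 7 of 11 tested were higher and 2 lower under CFA, and 7 of 10 tested were higher and 1 lower under saline, beside 5 higher in each with the same FPKM total; 18.1% of all genes were higher under CFA and 22.7% under saline. Phgdh, the first enzyme of serine synthesis, averaged 100.4 ± 11 FPKM in RVM CFA against 55.4 ± 3.45 FPKM in thalamus CFA, and 108 ± 7.37 FPKM in RVM saline against 58.0 ± 2.88 FPKM in thalamus saline (log2 differences 0.84 and 0.88, limma adjusted p = 0.00240 and 0.000379). Slc7a10, which exchanges glycine and D-serine, was higher by 1.18 under CFA and 0.76 under saline (limma adjusted p = 0.00121 and 0.00799).

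Slc12a5 and Slc12a2, chloride transporters that set the direction of both transmitters' current, differed in opposite directions. Slc12a5 (KCC2), the neuronal exporter of chloride, averaged 39.5 ± 1.35 FPKM in RVM CFA against 79.3 ± 20.5 FPKM in thalamus CFA, and 46.9 ± 2.54 FPKM in RVM saline against 102 ± 11 FPKM in thalamus saline (SD, n = 3 each). Slc12a2 (NKCC1), an importer also made by glia, averaged 81.3 ± 1.62 FPKM in RVM CFA against 36.9 ± 6.53 FPKM in thalamus CFA, and 82.3 ± 6.22 FPKM in RVM saline against 32.1 ± 3.80 FPKM in thalamus saline. The log2 differences were -0.96 and -1.1 for Slc12a5 (limma adjusted p = 0.0111 and 0.000360) and 1.13 and 1.33 for Slc12a2 (limma adjusted p = 0.00194 and 0.000279), under CFA and under saline in that order. Over the 11 genes of chloride transport, 3 were higher and 2 lower under CFA, and 5 higher and 1 lower under saline. Of all genes tested, 18.1% were higher and 14.9% lower under CFA, and 22.7% higher and 22.6% lower under saline. With the same FPKM total, 2 of the 11 chloride genes were higher and 4 lower under CFA, with 3 higher and 3 lower under saline. Summed oligodendrocyte markers, 17334 to 26581 FPKM over the RVM libraries against 4904 to 7919 FPKM over the thalamus libraries, differed between the same regions, and their part was not tested.

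Transcription factors of inhibitory neurons were counted in a hindbrain and a forebrain list. Of 11 genes of hindbrain inhibitory neurons 7 were tested between regions, with 2 higher in RVM under CFA and 4 under saline, and 0 lower, where 18.1% and 22.7% of all genes were higher. Of the 9 forebrain genes, 1 of 4 tested was lower and 0 higher under CFA, and 2 of 7 tested were lower and 0 higher under saline, where 14.9% and 22.6% of all genes were lower. At 1 FPKM or more were 9 or 10 of the 11 hindbrain genes in each RVM library and 2 to 6 in each thalamus library. Of the 9 forebrain genes, 2 or 3 were in each RVM library and 2 to 8 in each thalamus library. Genes that passed the filter through a single region had their direction fixed by it, so nothing is read from these counts. Pax2, a factor of glycinergic and GABAergic neurons of the hindbrain and cord, averaged 3.11 ± 0.18 FPKM in RVM CFA against 0.0229 ± 0.0199 FPKM in thalamus CFA, and 2.36 ± 0.111 FPKM in RVM saline against 0 FPKM in all 3 thalamus saline libraries. Its log2(FPKM + 1) difference was 2.0 under CFA and 1.75 under saline (limma adjusted p = 0.000708 and 0.000354), and it passed the filter through its RVM level alone. Uptake and breakdown of GABA showed 0 called of 5 tested under CFA, where 33% of all genes passed, and 3 lower of 5 under saline, among them Abat, the GABA transaminase (log2 difference -0.52, limma adjusted p = 0.0169). Between CFA and saline, 0 genes of these 7 lists passed in either region, and 0 by limma-voom. Slc7a10 had the lowest limma adjusted p of the glycine and serine genes in thalamus, 0.0999, at 16.3 ± 1.31 FPKM in thalamus CFA against 26.3 ± 5.15 FPKM in thalamus saline.

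The genes whose pattern over the 12 libraries was most like that of Slc6a5 were Tph2, Crh, Trh, Slc6a4 and Hoxb2, with root mean square distances of 0.385, 0.506, 0.63, 0.67 and 0.675 between profiles of log2(FPKM + 1) centred on their own means, where Slc6a5 itself had an SD of 2.79. Tph2 and Slc6a4 are the serotonin synthesis enzyme and transporter of raphe neurons, Crh and Trh are neuropeptide genes, and Hoxb2 is a hindbrain position gene that was listed at 0 in every thalamus library. Tph2 ranged over 36.3 to 66.2 FPKM in RVM and 0.0966 to 1.1 FPKM in thalamus. Those most like Gad1 were Pld5, Wscd2, Cacna2d2, Elfn1 and Vstm2l, at 0.328, 0.395, 0.426, 0.438 and 0.441, where Gad1 had an SD of 0.819. Elfn1, a synaptic adhesion gene of interneurons, ranged over 3.03 to 3.82 FPKM in RVM and 2.42 to 19.2 FPKM in thalamus. Gad2 was nearer to Gad1 than any of these, at 0.14. Slc32a1, whose mean level was higher in RVM, was farther, at 0.886, and farther even than Gphn (0.749) and Glra3 (0.817). The likeness is a description of 12 libraries of 14662 candidate genes, and libraries of a region share it.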

How the data were processed

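Total RNA of 12 rat samples had been sequenced after TruSeq library preparation, per the labels' protocols. The authors deposited a table of FPKM values; for its aligner, counting tool, strand setting, build and annotation, the sources used here give nothing. In each library FPKM times length was a whole multiple of a step for 100% of values (tolerance 0.01), taken as reads; 3 reads, the limit of a count of 0, are 0.156 to 0.201 CPM and cover counting error only. The total the authors divided by was 0.933 to 1.17 times the recovered reads, highest in thalamus CFA.

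Tissue and treatment labels gave the groups. The test was limma 3.58.1 (R 4.3.3), with its empirical Bayes trend option, on log2(FPKM + 1), over genes averaging at least 1 FPKM over the 6 libraries compared (in each region for the interaction), with Benjamini-Hochberg adjustment over all genes and a threshold of 0.05. Fold values understate changes of low genes. limma-voom was run on recovered reads.

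The members and lists were chosen with earlier results of these data known. All 10 members were described; from each list the genes with the smallest p per comparison were eligible to be named, and the others named were chosen after their values were seen. Of 82 pathway symbols 81 matched the table, and of 131 marker symbols 128; a further listed gene is not reported here. Likeness was ranked over genes averaging at least 1 FPKM over 12 libraries, and bare identifiers were passed over. Alternatives were a pseudocount of 0.1, no filter, 5 FPKM, 2 scalings, the replicate block, a single model, voom and left-out libraries. The fits were run on simulated reads with the same spread setting for every gene. That does not copy the uneven thalamus libraries, and nothing is read from it here.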

Additional observations from a re-analysis of the deposited data

How the results depend on the processing

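Of 693 values recomputed under alternatives, 625 kept direction and side of the threshold, 15 lost a call, 23 gained one and 30 changed sign. With the replicate block, 1 gene passed between CFA and saline in thalamus (Slc6a9, limma adjusted p = 0.0495), where 1338 genes passed in all beside 605; correlations of same-numbered libraries (0.36, 0.06 and 0.27 there) were not all above 0.1, so the numbers are not known to pair samples. Under CFA, leaving out single libraries gave 3 to 8 genes called between regions, beside 5. Leaving out thalamus CFA 1 and 2 together leaves a single thalamus CFA library, so only effect sizes are given from that fit.

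Changes of sign were among genes not called. Between CFA and saline in thalamus, Gphn became 0.13 with the same FPKM total, 0.15 by voom, 0.022 without CFA 1 and 2 and 0.034 without saline 1 and CFA 1, and Glra1 became 0.67 without CFA 1 and 2. The interaction without CFA 1 and 2 became -0.14 for Slc6a9, -0.75 for Glra1 and -0.016 for Glrb. Leaving out single libraries gave -0.40 to 1.09 for Slc32a1, -0.16 to 1.49 for Gad1, -0.19 to 1.2 for Gad2, -0.78 to 0.10 for Glra1 and -0.080 to 0.012 for Gphn in thalamus. It gave -0.13 to 0.017 for Glra2, -0.018 to 0.063 for Slc6a5 and -0.14 to 0.018 for Glra1 in RVM. Between regions under saline it gave -0.97 to 0.68 for Gad1, -0.99 to 0.40 for Gad2 and -0.092 to 0.00025 for Gphn. In the interaction it gave -1.0 to 0.49 for Slc32a1, -1.46 to 0.19 for Gad1, -1.14 to 0.25 for Gad2 and -0.17 to 0.70 for Glra1. The cause was not tested. The fit without thalamus saline 1 and CFA 2, chosen after seeing the data, called 0 genes of the 9 tested in thalamus; between regions it equals leaving out a single library. Depth limits Glra3 and thalamic Slc6a5.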
